A study of Mus musculus with 10 samples.

Results

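The unfolded protein and amino acid stress response was followed over 35 genes, taken by symbol from a count table of 55486 genes in 10 mouse RNA sequencing libraries. All 35 had counts in every library. The genes were ordered by role into 17 genes of endoplasmic reticulum (ER) folding and quality control, 4 genes of the stress sensors and Xbp1, 5 stress transcription factors and feedback genes, and 9 genes of amino acid supply and one-carbon metabolism. Symbols were looked up in the table, and where a symbol had more than 1 line the line with most counts was used, which applied to Ddit3.

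Normal fibroblasts (NFs) had been sorted from glands of mTmG mice aged 8 weeks, whose cells are red (Tomato) until Cre turns them green (GFP). They were divided into CD26- and CD26+ cells and grown for 1 week in 2D, and CD26+ NFs were made green with adeno-Cre, so that adenovirus exposure and subset cannot be told apart. Both subsets were mixed 1:1 in collagen/BME gels (BME, basement membrane extract) without tumor cells (gel 1) or with tumor cells of line 13-MCB-17 (gel 4) or 10-SJK-221 (gel 5). Both lines came from a model of invasive lobular carcinoma in which WapCre, active in mammary epithelium, deletes Cdh1, and each was also grown without NFs (gel 2 for 13-MCB-17, gel 3 for 10-SJK-221). After 7 days the gels were digested and the colors used to separate red from green NFs and from unlabelled tumor cells, giving 6 NF and 4 tumor libraries. NFs alone came from 1 gel, so co-culture and that gel cannot be told apart, and each tumor line is 1 line. According to the study's methods, glands of several mice were pooled for a sort. No source used here says that gels came from separate mice, so p-values measure the spread between these gels, which may be technical. Both NF libraries of a gel were counted as separate replicates of its culture, so 2 libraries alone stand for 1 gel and 4 co-cultured for 2.

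Libraries held 14142334 to 18408940 counts, and levels are given as CPM, the gene's count scaled to a library total of 1000000. Each cell type held its defining markers: 8 fibroblast markers summed to 23316 to 74846 CPM in NFs and 38.7 to 177 CPM in tumor cells, and 8 epithelial markers to 3096 to 3949.8 CPM in tumor cells and at most 0.0702 CPM in NFs alone. Co-cultured NFs held 60.9 to 189.9 CPM of the epithelial markers, or 1.97% to 4.90% of the level in the tumor cells of the same gel. The share was higher in CD26+ than in CD26- NFs, at 3.10% against 1.97% in gel 4 and 4.90% against 2.19% in gel 5. Co-cultured tumor cells held 0.301% to 0.578% of the fibroblast marker level of their gel. Dpp4, which encodes CD26, was at 0.281 to 0.771 CPM in CD26+ NFs and at most 0.0575 CPM in CD26- NFs, both near the 3 counts that an observed 0 allows (0.163 to 0.212 CPM), so the transcript hardly marked the subsets after culture. Of the immune markers, Cd68 reached 298.99 CPM in 13-MCB-17 cells alone, whereas the pan-leukocyte gene Ptprc was at most 0.127 CPM in any library. Mitochondrial genes took 1.67% and 1.68% of counts in NFs alone, 0.816% to 1.05% in co-cultured NFs and 1.64% to 2.04% in tumor cells. In bulk libraries, fewer cells expressing a gene and less RNA of it per cell cannot be told apart.

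Proteins that enter the ER are folded by chaperones such as BiP, the product of Hspa5. When unfolded proteins accumulate, the sensors in the ER membrane respond: ATF6 is cut and becomes a transcription factor, IRE1 (Ern1) splices Xbp1 mRNA, and PERK (Eif2ak3) phosphorylates a translation initiation factor. The last step lowers protein synthesis but favors translation of Atf4 mRNA, and other kinases reach the same step when amino acids run short, so ATF4 target genes for amino acid synthesis and uptake respond to both kinds of stress. Gene counts show neither the splicing of Xbp1 nor the amount or cleavage of a protein.

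Several of the genes share regulatory elements close to their start sites, and these stretches are shown so that genes with the same element can be set side by side in co-culture. Windows from 250 bases before to 50 bases after the start (RefSeq, GRCm38.p6) were found for 31 members, and not for Manf, Hyou1, Atf6 and Slc7a5, and both strands were searched. The ER stress element ERSE (CCAAT, 9 bases of any kind, CCACG) lay in 6 of these 31, all of them ER folding genes, and in 0.119% of 32851 windows of the same length. ERSE-II (ATTGG, 1 base of any kind, CCACG) was found in Herpud1 and Dnajb11, against 0.0365% of all windows. The CEBP-ATF element TGATGNAA, the kind of site bound by ATF4 with a C/EBP partner, was found in Asns, Atf3, Chac1, Pycr1, Trib3 and Herpud1, against 3.97% of all windows. The UPR element TGACGTGG was in no member window and in 0.676% of all windows. No elements overlapped each other. Those lying before the start are printed 5' to 3' on the gene's own strand, with the element in capitals and 5 bases on each side, while those of Trib3 and Dnajb11 lay after it. A match of letters does not show that a factor binds.
Hspa5, chr2:34772020-34772048, plus strand: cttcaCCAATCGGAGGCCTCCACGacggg
Hsp90b1, distal, chr10:86705633-86705661, minus strand: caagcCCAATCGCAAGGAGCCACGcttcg
Hsp90b1, proximal, chr10:86705528-86705556, minus strand: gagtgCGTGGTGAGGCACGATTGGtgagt
Calr, chr8:84847070-84847098, minus strand: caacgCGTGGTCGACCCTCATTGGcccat
Canx, chr11:50325795-50325823, minus strand: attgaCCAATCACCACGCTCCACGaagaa
Creld2, chr15:88819515-88819543, plus strand: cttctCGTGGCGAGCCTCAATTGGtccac
Pdia6, chr12:17266486-17266514, plus strand: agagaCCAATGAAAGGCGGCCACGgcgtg
Herpud1, ERSE-II, chr8:94386372-94386392, plus strand: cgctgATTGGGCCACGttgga
Herpud1, CEBP-ATF, chr8:94386312-94386329, plus strand: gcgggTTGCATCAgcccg
Asns, chr6:7693220-7693237, minus strand: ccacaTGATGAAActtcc
Atf3, chr1:191183431-191183448, minus strand: cgcacTTGCATCAccaag
Chac1, chr2:119351044-119351061, plus strand: tgccgTTGCATCActcct
Pycr1, chr11:120643839-120643856, minus strand: gtgtaTGATGCAAtgcac

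Levels of different genes were compared per kilobase of exon. In NFs alone Serpinh1, the collagen chaperone HSP47, led at 684 ± 20.1 CPM per kb (SD, n = 2), above the lectin chaperone gene Calr at 469.5 ± 47.6 CPM per kb. Hspa5 was at rank 4 with 240.5 ± 19.3 CPM per kb and did not differ beyond the spread from Hsp90b1 at 236 ± 5.45 CPM per kb. In co-cultured NFs Hspa5 came first at 563 ± 144 CPM per kb (n = 4), level within the spread with Serpinh1 at 552 ± 43.4 CPM per kb. Tumor cells alone had Hspa5 at 501 ± 58.4 CPM per kb and Calr at 493 ± 134 CPM per kb (n = 2), again within the spread, and Serpinh1 at rank 11 with 145 ± 17.7 CPM per kb. Among the least abundant were Chac1, at 4.09 ± 0.0405 CPM per kb in NFs alone, and the sensor gene Ern1 at 7.05 ± 2.05 CPM per kb.

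The first comparison asked what NFs do when tumor cells share their gel. Of the 35 genes, 17 rose (48.6%) and 2 fell (5.71%) in co-cultured NFs against NFs alone at an adjusted p under 0.05 (edgeR quasi-likelihood test, Benjamini-Hochberg adjustment over all genes, log2 fold changes given ± SE), while 25.9% of the 15013 genes tested rose and 22.9% fell. All 5 stress transcription factor and feedback genes rose, as did 3 of the 4 genes of the sensors and Xbp1 (the sensor group), 4 of 9 amino acid genes and 5 of 17 ER genes. The median log2 fold change was 0.87 for the transcription factor group, 0.56 for the sensor group, 0.41 for the amino acid genes and 0.09 for the ER genes, beside 0.02 over all genes tested. In 14 of the 35 members every co-cultured NF library lay above both libraries of NFs alone, and in 6 every one lay below, beside 26.1% and 27.8% of all genes tested.

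**Figure D1:**
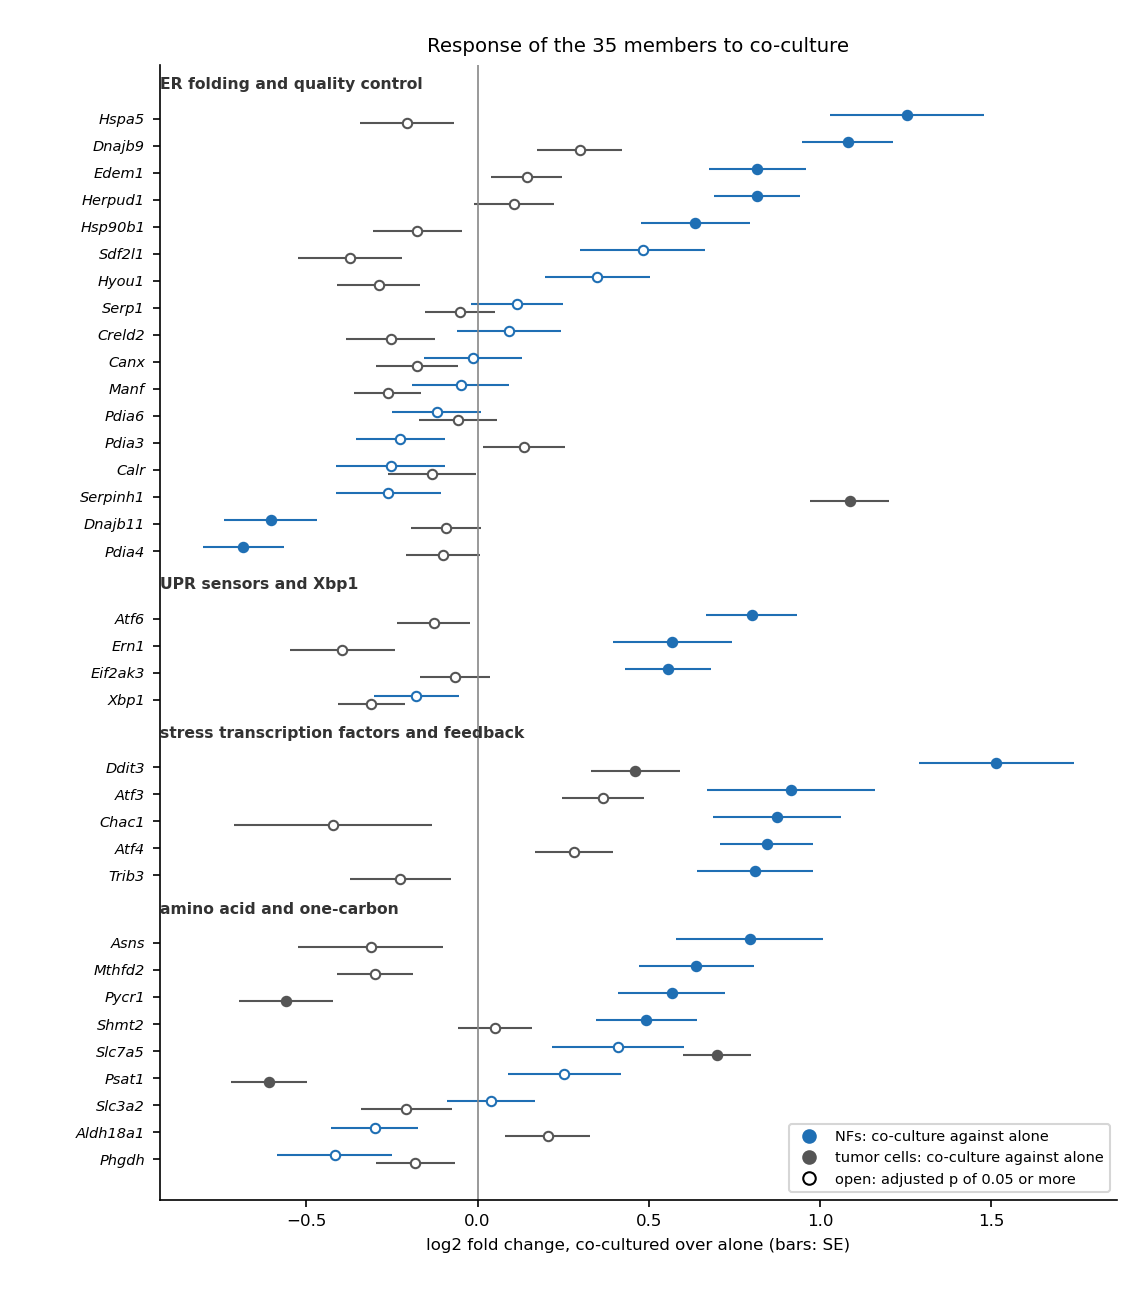
Log2 fold change of each of the 35 genes between co-culture and growth alone (x axis, bars are SE), in NFs (blue, 4 libraries against 2) and in tumor cells (gray, 2 against 2), grouped by role on the y axis. Filled points passed an adjusted p of 0.05: 17 genes lie to the right and 2 to the left in NFs, and 3 and 2 in tumor cells.

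Hspa5 (chromosome 2, 34771970 to 34777547, GRCm38) stood at 1075 CPM in CD26- and 959 CPM in CD26+ NFs alone, 2492 and 3161 CPM in gel 4, and 1718 and 2146 CPM in gel 5. Every co-cultured library was above both libraries of NFs alone, and gel 4 was above gel 5 in either subset (log2 fold change 1.25 ± 0.23 SE, adjusted p = 0.0015). Dnajb9, a co-chaperone that delivers clients to BiP, was 56.6 CPM in CD26- and 61.6 CPM in CD26+ NFs alone, 115 and 138 CPM in gel 4, and 116 and 115 CPM in gel 5, and was higher in all 4 than in either library alone (log2 fold change 1.08 ± 0.13 SE, adjusted p = 0.00015). Edem1, which sends misfolded glycoproteins for degradation, was 60.5 CPM in CD26- and 61.3 CPM in CD26+ NFs alone, 115 and 97.5 CPM in gel 4, and 119 and 87.5 CPM in gel 5. It rose in both subsets, with no overlap between cultures (log2 fold change 0.82 ± 0.14 SE, adjusted p = 0.00126). Herpud1, part of the machinery that exports proteins from the ER for degradation, was 60.4 CPM in CD26- and 61.1 CPM in CD26+ NFs alone, 101 and 104 CPM in gel 4, and 97.0 and 112 CPM in gel 5. The co-cultured values lay close together and clear of those alone (log2 fold change 0.82 ± 0.12 SE, adjusted p = 0.000575). Hsp90b1, the ER member of the HSP90 family, had a log2 fold change of 0.64 ± 0.16 (adjusted p = 0.00848), with 15.7% of its exon length shared with other genes.

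Other chaperone genes did not follow. Pdia4, a protein disulfide isomerase, was 317 CPM in CD26- and 325 CPM in CD26+ NFs alone, 195 and 208 CPM in gel 4, and 177 and 195 CPM in gel 5, and every co-cultured library was below both libraries alone (log2 fold change -0.68 ± 0.12 SE, adjusted p = 0.00117). Dnajb11, another BiP co-chaperone, was 81.6 CPM in CD26- and 102 CPM in CD26+ NFs alone, 46.8 and 63.7 CPM in gel 4, and 57.4 and 65.7 CPM in gel 5, and likewise fell without overlap (log2 fold change -0.60 ± 0.14 SE, adjusted p = 0.00521). The remaining 10 ER genes did not pass, with log2 fold changes from -0.26 (Serpinh1) to 0.48 (Sdf2l1, adjusted p = 0.0512). They include Calr at -0.25 ± 0.16 (adjusted p = 0.214), Canx at -0.01 ± 0.14 (adjusted p = 0.943), Creld2 at 0.09 ± 0.15 (adjusted p = 0.64) and Pdia6 at -0.12 ± 0.13 (adjusted p = 0.475). So of the 6 genes with an ERSE in the window, Hspa5 and Hsp90b1 rose and the other 4 did not pass the test. Of the 19 tested genes with an ERSE, which include these 6, 36.8% rose and 10.5% fell. Serpinh1 (chromosome 7, 99345376 to 99353239) was 1636 CPM in CD26- and 1705 CPM in CD26+ NFs alone, 1347 and 1210.0 CPM in gel 4, and 1370.4 and 1467 CPM in gel 5, with co-cultured values below both values alone and no call (log2 fold change -0.26 ± 0.15 SE, adjusted p = 0.187).

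All 3 sensor genes rose. Atf6 was 96.2 CPM in CD26- and 86.8 CPM in CD26+ NFs alone, 148 and 161 CPM in gel 4, and 163 and 143 CPM in gel 5 (log2 fold change 0.80 ± 0.13 SE, adjusted p = 0.000922). Its co-cultured values did not overlap those alone. Ern1 was 69.5 CPM in CD26- and 45.8 CPM in CD26+ NFs alone, 94.0 and 88.5 CPM in gel 4, and 86.7 and 57.8 CPM in gel 5, and the co-cultured CD26+ value of gel 5 lay below the CD26- value alone (log2 fold change 0.57 ± 0.17 SE, adjusted p = 0.0217). Eif2ak3 was 43.3 CPM in CD26- and 53.8 CPM in CD26+ NFs alone, 62.1 and 82.2 CPM in gel 4, and 60.4 and 71.6 CPM in gel 5, with no overlap (log2 fold change 0.56 ± 0.12 SE, adjusted p = 0.00505). Xbp1 (chromosome 11, 5520659 to 5525893), the substrate of IRE1, was 206 CPM in CD26- and 194 CPM in CD26+ NFs alone, 174 and 162 CPM in gel 4, and 163 and 184 CPM in gel 5. It was below both values alone in all 4 co-cultured libraries but did not pass (log2 fold change -0.18 ± 0.12 SE, adjusted p = 0.262).

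Among the transcription factors, Atf4 (chromosome 15, 80255184 to 80257541) was 331 CPM in CD26- and 365 CPM in CD26+ NFs alone, 610.5 and 649 CPM in gel 4, and 513 and 654 CPM in gel 5. The groups did not overlap (log2 fold change 0.84 ± 0.14 SE, adjusted p = 0.000806). Ddit3 (chromosome 10, 127290774 to 127296288), which encodes CHOP, a factor induced downstream of ATF4, had the largest change of the 35 and was 23.5 CPM in CD26- and 47.6 CPM in CD26+ NFs alone, 90.3 and 144 CPM in gel 4, and 54.5 and 96.7 CPM in gel 5. Each co-cultured library was above both alone, with the CD26+ above the CD26- library of each gel (log2 fold change 1.51 ± 0.23 SE, adjusted p = 0.0005). Exons of other genes cover 10.9% of the exon length of Ddit3, and use of strand in the counting was not given in the sources used here. Atf3, an early stress-induced factor, was 53.2 CPM in CD26- and 162 CPM in CD26+ NFs alone, 146 and 189 CPM in gel 4, and 154 and 218 CPM in gel 5, where the CD26+ value alone already exceeded 2 of the 4 co-cultured values (log2 fold change 0.92 ± 0.25 SE, adjusted p = 0.0123). Chac1, which breaks down glutathione, was 6.64 CPM in CD26- and 6.74 CPM in CD26+ NFs alone, 12.4 and 11.1 CPM in gel 4, and 12.6 and 11.4 CPM in gel 5 (log2 fold change 0.87 ± 0.19 SE, adjusted p = 0.00388). Trib3, a pseudokinase that restrains ATF4 signaling, was between 23.7 and 41.0 CPM in co-culture against 19.2 and 20.0 CPM alone (log2 fold change 0.81 ± 0.17 SE, adjusted p = 0.00339). Dissociation-induced genes (8 immediate early genes such as Fos and Egr1) had sums of 5226 to 5712 CPM in co-cultured NFs, against 5706 (CD26-) and 6553 CPM (CD26+) without tumor cells, and 0 of the 8 rose and 1 fell.

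In the amino acid group, Asns (chromosome 6, 7675169 to 7693254), asparagine synthetase, was 85.6 CPM in CD26- and 67.2 CPM in CD26+ NFs alone, 109.7 and 99.2 CPM in gel 4, and 146 and 154 CPM in gel 5. All co-cultured values were above both alone, and gel 5 was above gel 4 (log2 fold change 0.79 ± 0.21 SE, adjusted p = 0.0126). Mthfd2, a mitochondrial one-carbon enzyme, was 65.8 CPM in CD26- and 41.6 CPM in CD26+ NFs alone, 78.0 and 75.6 CPM in gel 4, and 80.1 and 84.8 CPM in gel 5, lowest in CD26+ NFs alone (log2 fold change 0.64 ± 0.17 SE, adjusted p = 0.0112). Pycr1, the last step of proline synthesis, was 33.7 CPM in CD26- and 26.2 CPM in CD26+ NFs alone, 47.2 and 32.1 CPM in gel 4, and 53.9 and 39.5 CPM in gel 5. The CD26+ value of gel 4 lay below the CD26- value alone (log2 fold change 0.57 ± 0.16 SE, adjusted p = 0.0141). Shmt2, which feeds serine carbon to the one-carbon pool, was 59.1 CPM in CD26- and 56.5 CPM in CD26+ NFs alone, 70.8 and 73.2 CPM in gel 4, and 82.6 and 87.8 CPM in gel 5 (log2 fold change 0.49 ± 0.15 SE, adjusted p = 0.0205). The serine synthesis genes Psat1 at 0.25 ± 0.17 (adjusted p = 0.232) and Phgdh at -0.42 ± 0.17 (adjusted p = 0.0651) did not pass, nor did the transporter subunits Slc7a5 at 0.41 ± 0.19 (adjusted p = 0.105) and Slc3a2 at 0.04 ± 0.13 (adjusted p = 0.82) or the proline gene Aldh18a1 at -0.30 ± 0.13 (adjusted p = 0.0772). Without gel 5, Asns (0.47, adjusted p = 0.0645), Atf3 (0.0634), Mthfd2 (0.0645), Pycr1 (0.124) and Shmt2 (0.32, adjusted p = 0.167) no longer passed, and 12 rather than 17 members were called higher. All 6 genes with the CEBP-ATF element in the window (Asns, Atf3, Chac1, Pycr1, Trib3 and Herpud1) rose with all 6 NF libraries in the fit. Of the 313 tested genes with the element, these 6 included, 27.8% rose, beside 25.9% of all genes. Of the pair with ERSE-II, Herpud1 rose and Dnajb11 fell. The 9 tested genes with it include this pair: 11.1% rose, which is Herpud1 itself, and 22.2% fell, Dnajb11 among them.

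Marker levels of several cell types moved with co-culture in the NF libraries. Of the epithelial markers 7 of 7 tested rose. Of 8 fibroblast markers 2 rose and 4 fell, with sums of 69497 and 74846 CPM alone and 23316 to 41536 CPM in co-culture. Of 3 endothelial markers 2 rose (Pecam1 from 0.31 and 1.26 CPM alone to between 5.93 and 9.76 CPM), and of 3 immune markers tested 2 rose and 1 fell (Cd68 from 3.48 and 6.53 CPM to between 19.6 and 53.5 CPM). Of 6 cell cycle genes 0 rose and 2 fell. Their part in the differences was not tested. To size the tumor cell part for each gene, the epithelial marker share of an NF library was multiplied by the gene's level in the tumor cells of its gel. For Asns this gave 15.5 and 34.7 CPM in CD26- and CD26+ NFs of gel 5, which is 10.6% and 22.6% of the measured level. For Phgdh it reached 17.7%, for Atf3 14.6%, for Trib3 13.2%, for Psat1 10.7% and for Aldh18a1 10.3%, all in CD26+ NFs of gel 5. Hspa5 had at most 4.08%, Herpud1 1.80% and Ddit3 2.39% by this measure. It assumes that RNA of all genes carries over like that of the markers.

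**Figure D2:**
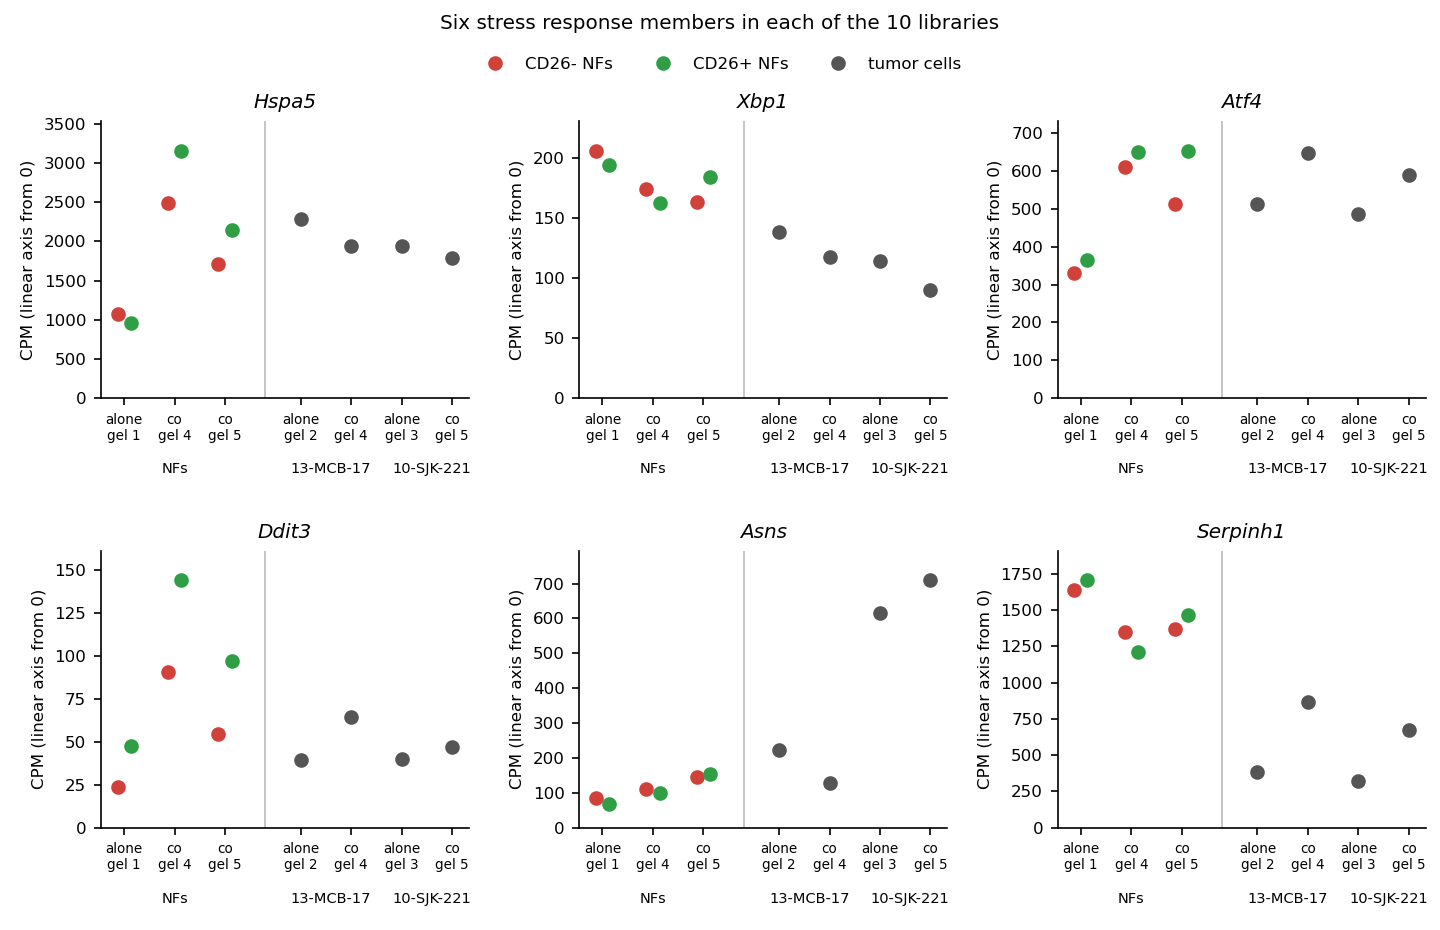
CPM on linear axes from 0 of 6 genes (1 panel each) in the 10 libraries, with NFs left of the line (red CD26-, green CD26+) and tumor cells right of it (gray), each point 1 library. Hspa5, Atf4 and Ddit3 of co-cultured NFs lie above NFs alone, Asns is highest in 10-SJK-221 cells, and Serpinh1 is lowest in tumor cells grown alone.

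Other genes of the same pathways, counted from lists, moved as follows in co-cultured NFs, where 25.9% of all genes tested rose and 22.9% fell. Of 43 other ER genes 15 rose and 4 fell. Of 28 tested of 29 other genes of amino acid stress 19 rose and 4 fell, and of 12 tRNA synthetase genes 5 rose and 0 fell. Of 7 cytosolic heat shock genes 3 rose and 0 fell. In co-cultured tumor cells (10.8% and 11.5% of all genes) 2 other ER genes rose and 1 fell, 5 of 26 tested amino acid stress genes rose and 5 fell, and 0 tRNA synthetase genes rose and 2 fell. The interaction of cell type and culture (12.0% and 8.15% of all genes) was positive for 3 other ER genes, 9 amino acid stress genes and 4 tRNA synthetase genes, and negative for 0 of each. Grown alone, where NFs were lower in 27.1% and higher in 28.4% of all genes, NFs were lower than tumor cells in 9 of the 12 tRNA synthetase genes and higher in 0. They were higher in 18 and lower in 9 of the 43 other ER genes, and higher in 7 and lower in 11 of 28 amino acid stress genes. In shared gels (27.7% higher and 24.2% lower) the counts were 23 and 6 for other ER genes, 10 and 3 for amino acid stress genes, and 1 and 1 for tRNA synthetase genes.

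Whether the subsets differ was asked next, over gels 1, 4 and 5. Among the 35 genes 0 were higher and 2 lower in CD26+ than in CD26- NFs, against 3.93% and 3.60% of 15013 genes tested. For the 0, edgeR gave 11 members in either direction at an unadjusted p under 0.05, and DESeq2 called Ddit3 and Atf3 higher and Ern1 lower as well. Slc7a5, the light chain of a large neutral amino acid transporter, was 99.7 CPM in CD26- and 71.7 CPM in CD26+ NFs alone, 108 and 78.9 CPM in gel 4, and 162 and 95.2 CPM in gel 5. It was lower in CD26+ NFs in each of the 3 gels (log2 fold change -0.74 ± 0.18 SE, adjusted p = 0.0385), and so was Pycr1, with the values above (log2 fold change -0.61 ± 0.14 SE, adjusted p = 0.0359). The transporter's heavy chain gene Slc3a2 had 0.05 ± 0.12 (adjusted p = 0.84). Without gel 5 neither passed (adjusted p = 0.233 for Slc7a5 and 0.281 for Pycr1), and Pycr1 also missed the threshold without gel 1 (0.0512). Without gel 5, which leaves 1 degree of freedom, 17 of all genes passed, and 7 members had an unadjusted p under 0.05. With library totals in place of TMM scaling, which shifts the median of all genes by 0.15 on the log2 scale, 2 members (Ddit3 and Atf3) were higher and 0 lower. In the main fit, 2 of 8 fibroblast markers and 1 of 6 cell cycle genes were lower in CD26+ NFs. Higher were 1 of 7 tested epithelial and 1 of 3 endothelial markers. The part of these gene sets in the differences was not tested.

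For Ddit3 and Ern1 the call depended on the fit. Ddit3 was above its CD26- neighbor in each gel, and Ern1, with the values given above, below it. Neither passed without pairing by gel, at 0.67 ± 0.20 (adjusted p = 0.071) and -0.56 ± 0.16 (adjusted p = 0.063). With gel as a block, Ddit3 had 0.68 (adjusted p = 0.0148) and Ern1 -0.58 (adjusted p = 0.0368). Both also passed without gel 4, at 0.77 (adjusted p = 0.0174) and -0.74 (adjusted p = 0.0158). Hspa5 (0.02, adjusted p = 0.972) and Atf4 (0.04, 0.888) showed no difference between subsets beyond the error. The medians were -0.05 for ER genes, -0.19 for the sensor group, 0.27 for the transcription factor group and -0.30 for amino acid genes, beside 0.0040 over all genes.

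The response to co-culture was not shown to differ between subsets: 0 of the 35 genes passed in the interaction of subset and culture (edgeR), where 0.228% of 16231 genes were higher and 0.148% lower. At an unadjusted p under 0.05 there were 3, Atf3, Psat1 and Mthfd2. Atf3 had -1.20 ± 0.30 (adjusted p = 0.145), with CPM in CD26- NFs of 53.2 alone against 146 and 154 co-cultured, and in CD26+ NFs of 162 alone against 189 and 218. DESeq2 called Atf3 alone among the members, at -1.22 (adjusted p = 0.0316), and so did edgeR with gel as a block, at -1.20 (adjusted p = 0.00634). Each subset had 1 library without tumor cells, so the size of its step rests on that library. The epithelial marker share was higher in CD26+ NFs of both co-cultures. It put the tumor cell part of Atf3 in gel 5 at 14.6% in CD26+ and 9.20% in CD26- NFs, and that of Psat1 at 10.7% and 5.15%. Its part in these differences was not tested.

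The same question was put to the tumor cells, where Serpinh1, Slc7a5 and Ddit3 rose and Psat1 and Pycr1 fell. With the line as a term, these 3 higher and 2 lower members of 35 compare with 10.8% higher and 11.5% lower of 13197 genes tested. The median log2 fold change was -0.10 for ER genes, -0.22 for the sensor group, 0.28 for the transcription factor group and -0.21 for amino acid genes, beside 0.01 over all genes. Serpinh1 was 385 CPM alone and 869 CPM co-cultured for 13-MCB-17, and 324 and 670.4 CPM for 10-SJK-221. Both co-cultured values were above both alone and below every NF value (log2 fold change 1.09 ± 0.12 SE, adjusted p = 0.000547). The fibroblast marker share multiplied by the NF level of the gel gives 7.40 CPM of Serpinh1 in gel 4 and 4.27 CPM in gel 5, and its part in the difference was not tested. The co-cultured level was 2.26 times (13-MCB-17) and 2.07 times (10-SJK-221) that alone.

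Slc7a5 was 65.9 CPM alone and 114 CPM co-cultured for 13-MCB-17, and 58.5 and 92.2 CPM for 10-SJK-221, and rose in both lines without overlap (log2 fold change 0.70 ± 0.10 SE, adjusted p = 0.00188). Ddit3 was 39.1 CPM alone and 64.2 CPM co-cultured for 13-MCB-17, and 39.6 and 47.1 CPM for 10-SJK-221, higher in co-culture in either line (log2 fold change 0.46 ± 0.13 SE, adjusted p = 0.0367). Psat1, of serine synthesis, was 308 CPM alone and 191 CPM co-cultured for 13-MCB-17, and 308 and 221 CPM for 10-SJK-221, and fell in both lines (log2 fold change -0.61 ± 0.11 SE, adjusted p = 0.00617). Pycr1 was 31.4 CPM alone and 19.2 CPM co-cultured for 13-MCB-17, and 46.1 and 35.8 CPM for 10-SJK-221, lower in co-culture within each line, though the cultures overlapped across lines (log2 fold change -0.56 ± 0.14 SE, adjusted p = 0.0215). Hspa5 was 2292 CPM alone and 1938 CPM co-cultured for 13-MCB-17, and 1943 and 1788 CPM for 10-SJK-221, lower in both co-cultures, and did not pass (log2 fold change -0.21 ± 0.14 SE, adjusted p = 0.333). Asns and Chac1 went opposite ways in the lines, with no replicate within a line. Asns was 223 CPM alone and 129 CPM co-cultured for 13-MCB-17, and 616 and 709.5 CPM for 10-SJK-221. Chac1 was 21.9 CPM alone and 10.4 CPM co-cultured for 13-MCB-17, and 13.8 and 16.8 CPM for 10-SJK-221. Atf4 was 512 CPM alone and 648 CPM co-cultured for 13-MCB-17, and 487 and 589 CPM for 10-SJK-221, higher in both co-cultures but past no threshold (log2 fold change 0.28 ± 0.11 SE, adjusted p = 0.115).

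These tumor cell calls rest on 2 lines with 1 degree of freedom between libraries. Ddit3 did not pass with RLE scaling (adjusted p = 0.0549) or in DESeq2 (0.199), and Pycr1 did not pass in DESeq2 (0.124). With a spread shared over all 10 libraries, Serpinh1 and Psat1 passed and Ddit3, Slc7a5 and Pycr1 did not, and without the line as a term 0 members and 0 of all genes did in edgeR, with 3 members and 2207 genes at an unadjusted p under 0.05. Leaving out either library of a line leaves the culture difference to the pair of the other line. Fits without gel 2 and without gel 4 thus gave the same estimate, as did those without gel 3 and without gel 5. They are not separate checks. On the 10-SJK-221 pair alone, Serpinh1 had 1.05, Ddit3 0.25 and Pycr1 -0.37. On the 13-MCB-17 pair alone, Serpinh1 had 1.13, Ddit3 0.67 and Pycr1 -0.75, and Chac1, not called with all gels, had -1.12. Dissociation-induced genes had sums of 8871 and 10646 CPM in the co-cultures, against 5796 (13-MCB-17) and 7836 CPM (10-SJK-221) without NFs. Of 6 cell cycle genes 1 rose and 4 fell, and of 8 epithelial markers 0 rose and 4 fell. Of 6 tested fibroblast markers 5 rose and 0 fell. The part of these gene sets in the member differences was not tested.

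Whether NFs and tumor cells responded differently was tested directly. The interaction of cell type and culture was positive for 8 of the 35 genes and negative for 1, against 12.0% and 8.15% of 17048 genes tested. A positive value means a larger rise, or smaller fall, in NFs, and the test uses the same libraries, NFs and tumor cells alone included, as the comparisons within each cell type. The 8 were Hspa5 (log2 fold change 1.47 ± 0.32 SE, adjusted p = 0.0155), Hsp90b1 at 0.81 ± 0.21 (adjusted p = 0.0287), Dnajb9 at 0.77 ± 0.21 (adjusted p = 0.0337), Herpud1 at 0.71 ± 0.19 (adjusted p = 0.0356), the sensor Atf6 at 0.93 ± 0.20 (adjusted p = 0.0141), Trib3 at 1.05 ± 0.26 (adjusted p = 0.0257), and the amino acid genes Psat1 at 0.87 ± 0.20 (adjusted p = 0.0188) and Mthfd2 at 0.96 ± 0.24 (adjusted p = 0.0237). Serpinh1 was the negative one, at -1.36 ± 0.28 (adjusted p = 0.0124). Medians were 1.04 for the transcription factor group, 0.78 for the sensor group, 0.43 for amino acid genes and 0.22 for ER genes, beside 0.06 over all genes. Without gel 4 or without gel 5, which leaves 1 degree of freedom, 0 members and 0 of all genes passed, with 8 members at an unadjusted p under 0.05 either way. Without gel 2, 3 members were higher (Hspa5, Dnajb9 and Atf6), and without gel 3, 12 were.

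Between the tumor lines, Asns stood out. It was 223 CPM alone and 129 CPM co-cultured for 13-MCB-17, and 616 and 709.5 CPM for 10-SJK-221, so that 10-SJK-221 had 2.76 times the 13-MCB-17 level alone and 5.49 times in co-culture (log2 fold change 1.88 ± 0.22 SE, adjusted p = 0.00104). Pycr1, with the values above, was also higher in 10-SJK-221 in both cultures (log2 fold change 0.65 ± 0.14 SE, adjusted p = 0.0168). These 2 of 35 members were higher and 8 lower, against 5.93% and 8.54% of 13197 genes. All 6 cell cycle genes and 3 of 7 cytosolic heat shock genes were also higher in 10-SJK-221, and their part in these differences was not tested. No other amino acid gene was higher, and Slc3a2 was lower, at 457 CPM alone and 349 CPM co-cultured for 13-MCB-17, and 299.9 and 305 CPM for 10-SJK-221 (log2 fold change -0.48 ± 0.13 SE, adjusted p = 0.0476).

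Of the ER genes, 5 were lower in 10-SJK-221. Sdf2l1, which joins an ER chaperone complex, was 31.8 CPM alone and 22.4 CPM co-cultured for 13-MCB-17, and 19.0 and 16.8 CPM for 10-SJK-221 (log2 fold change -0.66 ± 0.15 SE, adjusted p = 0.0241). Calr was 1695 CPM alone and 1540.3 CPM co-cultured for 13-MCB-17, and 1147 and 1089 CPM for 10-SJK-221, with both 13-MCB-17 values above both others (log2 fold change -0.61 ± 0.13 SE, adjusted p = 0.0171). Edem1 was 179 CPM alone and 215 CPM co-cultured for 13-MCB-17, and 145 and 152 CPM for 10-SJK-221 (log2 fold change -0.48 ± 0.10 SE, adjusted p = 0.0178). Hyou1, an ER HSP70-like chaperone, was 531 CPM alone and 401 CPM co-cultured for 13-MCB-17, and 364 and 335 CPM for 10-SJK-221, and the co-cultured 13-MCB-17 and lone 10-SJK-221 values lay close (log2 fold change -0.48 ± 0.12 SE, adjusted p = 0.0352). Manf, a secreted ER stress protein, had -0.45 ± 0.10 (adjusted p = 0.0205). Of the sensor group, Eif2ak3 was 68.7 CPM alone and 64.1 CPM co-cultured for 13-MCB-17, and 51.3 and 52.0 CPM for 10-SJK-221 (log2 fold change -0.44 ± 0.10 SE, adjusted p = 0.0253). Xbp1 was 138 CPM alone and 118 CPM co-cultured for 13-MCB-17, and 114 and 89.7 CPM for 10-SJK-221 (log2 fold change -0.41 ± 0.10 SE, adjusted p = 0.0268). ER genes had a median of -0.24 and amino acid genes of -0.05, beside 0.0039 over all genes, and 16 of 17 ER genes had a log2 fold change below 0. Leaving out any 1 tumor library, in a fit with a spread shared over all libraries, leaves the line difference to the pair of 1 culture. Without gel 2 or gel 3 that is the co-cultured pair, where Hyou1 had -0.29 and -0.30 and Slc3a2 -0.23. Without gel 4 or gel 5 it is the pair grown alone, where Hyou1 had -0.62 and Slc3a2 -0.68. Asns lay between 1.39 and 2.42 in these fits. Slc3a2 did not pass with RLE scaling (adjusted p = 0.07) or library totals (0.0509), and Hyou1 did not pass with RLE scaling (0.0519). DESeq2 called Asns, Calr, Edem1 and Hyou1. Without the culture as a term, 0 members and 0 of all genes passed, with 4 members and 1292 genes at an unadjusted p under 0.05.

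**Figure D3:**
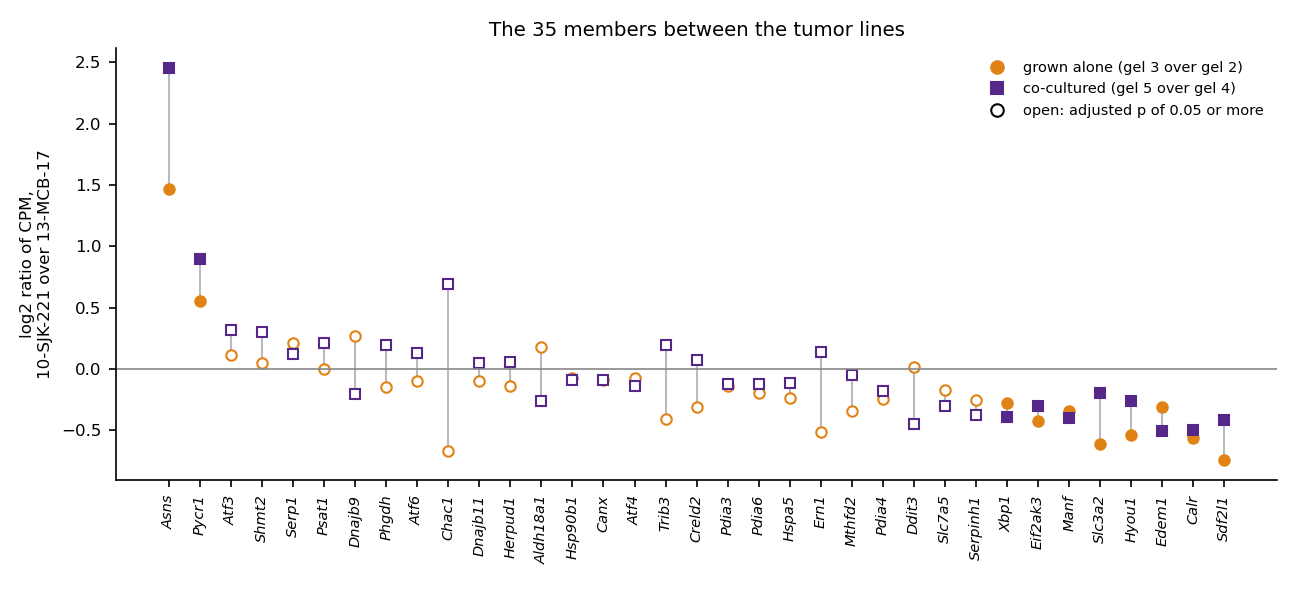
Log2 ratio of CPM of 10-SJK-221 over 13-MCB-17 cells (y axis) for the 35 genes (x axis), for the lines grown alone (orange circles) and in co-culture (purple squares), 1 library each. Filled symbols passed an adjusted p of 0.05 over both cultures: Asns and Pycr1 lie above 0, and 8 genes from Xbp1 to Sdf2l1 lie below it in both cultures.

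NFs and tumor cells grown alone differed in 20 of the 35 genes. Relative to tumor cells, 4 were higher and 16 lower in NFs, against 28.4% and 27.1% of 17048 genes tested. With tumor line as a term, 5 more members passed, namely Dnajb9 at -0.41 (adjusted p = 0.0386), Atf4 at -0.39 (adjusted p = 0.0389), Shmt2 at -0.45 (adjusted p = 0.0363) and Aldh18a1 at -0.43 (adjusted p = 0.0315), all lower in NFs, and Slc7a5 at 0.58 (adjusted p = 0.0298), higher. Medians were -0.41 for ER genes, -0.45 for amino acid genes and -1.30 for the transcription factor group, beside 0.02 over all genes. Serpinh1 was higher in NFs, at 1671 ± 49.0 CPM (SD, n = 2) against 354 ± 43.2 CPM (SD, n = 2) (log2 fold change 2.36 ± 0.22 SE, adjusted p = 4.64e-05). Herpud1, at 38.7 and 35.2 CPM in tumor cells alone, was higher in NFs too (log2 fold change 0.85 ± 0.15 SE, adjusted p = 0.00151), as were Xbp1 (0.79 ± 0.20, adjusted p = 0.00929) and Dnajb11 (0.46 ± 0.16, adjusted p = 0.0419).

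Lower in NFs were the ER genes Edem1 (-1.28 ± 0.21, adjusted p = 0.00119), Sdf2l1 (-1.21 ± 0.30, adjusted p = 0.00871), Hyou1 (-1.17 ± 0.23, adjusted p = 0.00297) and Hspa5 (-0.93 ± 0.24, adjusted p = 0.0111), and with smaller differences Hsp90b1, Canx, Pdia6 and Manf (-0.67 to -0.48). The sensor Atf6 had -0.61 ± 0.15 (adjusted p = 0.00846). Trib3 was 136 CPM alone and 96.4 CPM co-cultured for 13-MCB-17, and 103 and 111 CPM for 10-SJK-221, against 19.2 and 20.0 CPM in NFs alone (log2 fold change -2.48 ± 0.21 SE, adjusted p = 2.16e-05). Atf3 was 426 CPM alone and 521 CPM co-cultured for 13-MCB-17, and 461 and 649 CPM for 10-SJK-221, above every NF value (log2 fold change -2.12 ± 0.18 SE, adjusted p = 2.11e-05), and Chac1 had -1.30 ± 0.31 (adjusted p = 0.00819). In the amino acid group, Psat1 at 96.7 and 70.1 CPM in NFs alone was below all tumor values (log2 fold change -1.77 ± 0.15 SE, adjusted p = 2.73e-05). Phgdh, the first enzyme of serine synthesis, was 132 CPM alone and 105 CPM co-cultured for 13-MCB-17, and 119 and 120.1 CPM for 10-SJK-221, and 55.6 and 34.2 CPM in NFs alone (log2 fold change -1.39 ± 0.17 SE, adjusted p = 0.00024). Asns (-2.32 ± 0.74, adjusted p = 0.0266) and Mthfd2 (-0.83 ± 0.18, adjusted p = 0.00448) were lower as well. Cell cycle genes also differed, 6 of them with sums of 696 (13-MCB-17) and 1026 CPM (10-SJK-221) in tumor cells against 200.4 (CD26-) and 108 CPM (CD26+) in NFs, and their part in these differences was not tested. Here cell type and gel cannot be told apart. Without gel 4 or without gel 5, which add to the shared spread, 8 members were lower, since Hsp90b1, Canx, Pdia6, Sdf2l1, Manf, Atf6, Chac1 and Mthfd2 no longer passed. Without gel 2, Canx, Pdia6, Sdf2l1 (-0.74) and Manf (-0.37) did not pass. Dnajb11 passed in none of these fits (adjusted p = 0.0624 to 0.173), with library totals (0.101) or with no filter beyond 1 count (0.0544). Without gel 3, Asns (-1.47, adjusted p = 0.121) and Xbp1 (0.0538) did not pass.

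In the shared gels 6 of the 35 genes were higher and 8 lower in NFs than in tumor cells, against 27.7% and 24.2% of 17048 genes. Herpud1 led the higher ones, with 39.7 and 41.2 CPM in the tumor cells of gels 4 and 5 (log2 fold change 1.55 ± 0.14 SE, adjusted p = 3.12e-05), followed by Serpinh1 (1.01 ± 0.19, adjusted p = 0.00278), Ddit3 (0.93 ± 0.24, adjusted p = 0.0115), Xbp1 (0.92 ± 0.18, adjusted p = 0.00289), Pycr1 (0.84 ± 0.27, adjusted p = 0.0292) and Ern1 (0.57 ± 0.21, adjusted p = 0.0474). Phgdh was lowest relative to tumor cells, at 31.0 and 28.5 CPM in NFs of gel 4 and 34.7 and 33.3 CPM in gel 5 (log2 fold change -1.62 ± 0.14 SE, adjusted p = 3.47e-05). Aldh18a1, which starts proline synthesis, was 233 and 195 CPM in tumor cells and 92.6 to 105 CPM in NFs (log2 fold change -0.94 ± 0.14 SE, adjusted p = 0.000564). Atf3 (-1.54 ± 0.14, adjusted p = 4.10e-05), Trib3 (-1.43 ± 0.16, adjusted p = 0.000149) and Psat1 (-0.90 ± 0.13, adjusted p = 0.000473) were lower in NFs as they were alone, and so were the ER genes Pdia6 (-0.73 ± 0.13, adjusted p = 0.00231) and Edem1 (-0.62 ± 0.18, adjusted p = 0.018). Pdia4, with no call between the cell types grown alone (-0.04 ± 0.16, adjusted p = 0.861), was lower in NFs of the shared gels (-0.62 ± 0.14, adjusted p = 0.0059). Without gel 4, Herpud1 alone was called higher and Phgdh, Atf3 and Trib3 lower, and Edem1 had -0.31 (adjusted p = 0.426) and Ern1 0.37 (adjusted p = 0.461). Without gel 5, Herpud1 was higher and Phgdh, Aldh18a1 and Atf3 lower. With library totals, Ern1 (adjusted p = 0.156) and Pycr1 (0.0747) did not pass. In the main fit, 6 of 6 cell cycle genes and 4 of 8 dissociation-induced genes were lower in NFs and 0 of either higher. Of 7 cytosolic heat shock genes 1 was higher and 4 lower, and of 3 endothelial markers 3 were higher. The part of these gene sets in the differences was not tested.

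Hspa5, lower in NFs when both were grown alone, was at 2379 ± 609.7 CPM (SD, n = 4) in co-cultured NFs and 1863 ± 106 CPM (SD, n = 2) in co-cultured tumor cells, a difference that did not pass (log2 fold change 0.54 ± 0.21 SE, adjusted p = 0.0633). With gel as a block it did, at 0.52 (adjusted p = 0.0273), as did Dnajb9, Eif2ak3, Hyou1 and Asns, and 9 members were then higher and 10 lower. RLE scaling moved the median of all genes by 0.06 on the log2 scale and gave 10 higher, and library totals without TMM moved it by -0.19 and gave 13 lower, and Atf4 lay on either side of 0 between these scalings. In all, 3 of the 35 genes were higher in each of the 6 NF libraries than in each of the 4 tumor libraries, and 11 were lower, beside 18.5% and 22.3% of all genes tested.

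**Figure D4:**
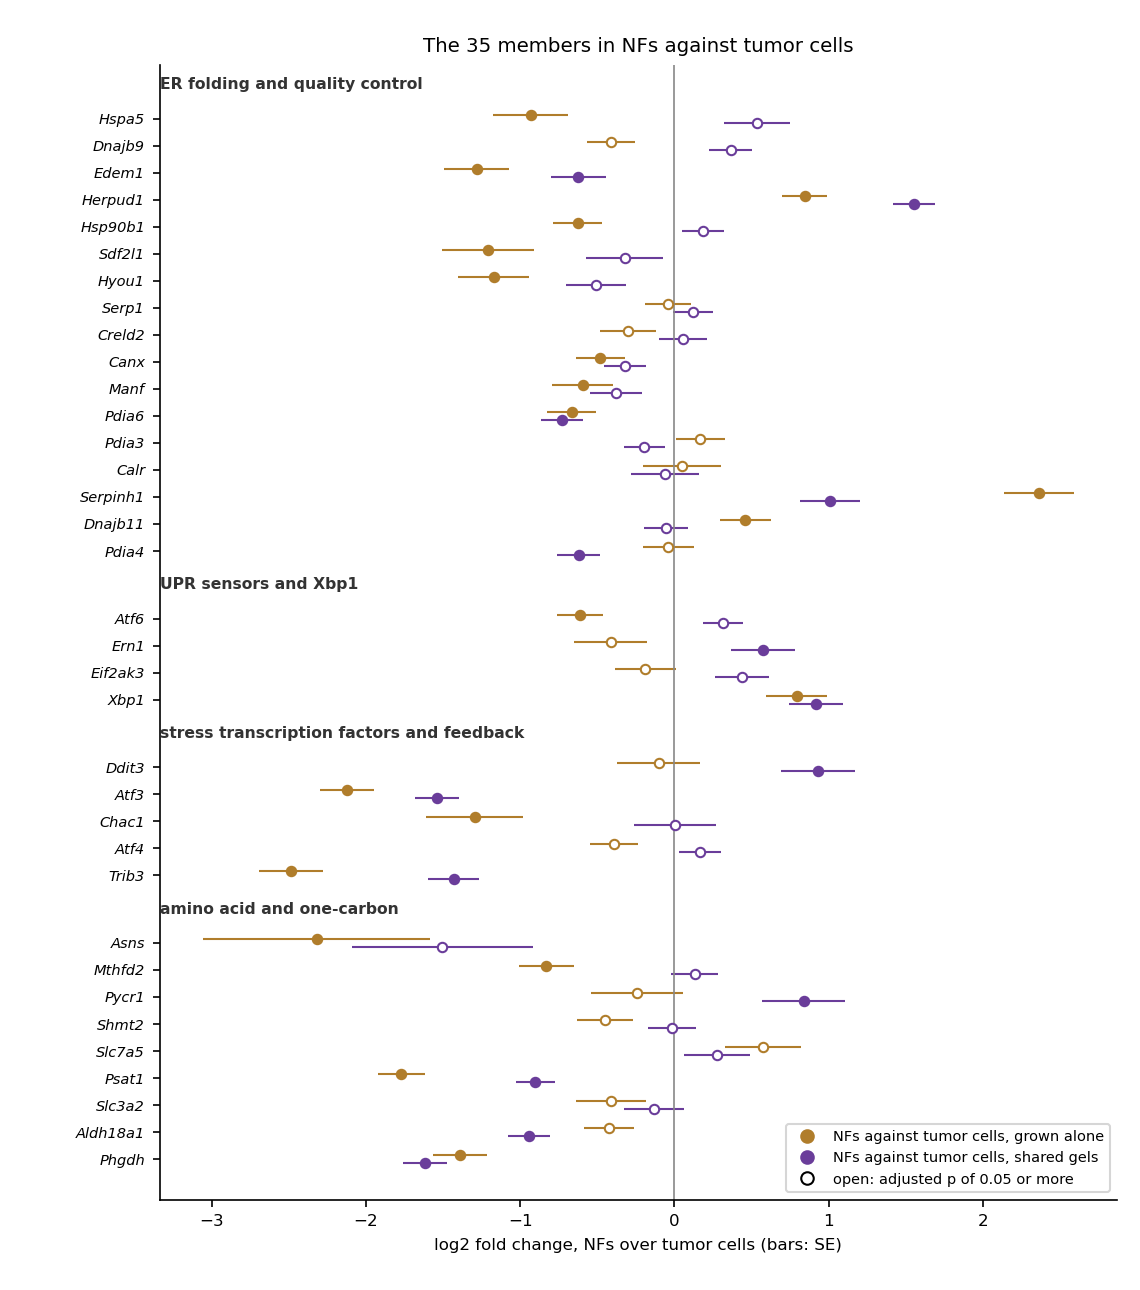
Log2 fold change of NFs over tumor cells for the 35 genes, grown alone (brown, 2 libraries against 2) and in the shared gels (purple, 4 against 2), with SE bars and genes grouped by role on the y axis. Filled points passed an adjusted p of 0.05: of 17 ER genes 3 lie to the right and 8 to the left alone, and 2 and 3 in shared gels.

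Summed over their members, the ER genes took 7612 to 10295 CPM of NF libraries and 8511 to 10129.9 CPM of tumor libraries. The amino acid genes took 767 to 990.6 CPM in NFs and 1307 to 1862 CPM in tumor cells, without overlap. The ratio of the ER to the amino acid sum was 9.25 in CD26- and 9.92 in CD26+ NFs alone, 10.0 and 12.1 in gel 4, and 7.87 and 9.11 in gel 5. It was 6.38 alone and 7.49 co-cultured in 13-MCB-17, and 4.73 and 4.57 in 10-SJK-221. Every NF library was thus above every tumor library, and 10-SJK-221 was lowest. These sums follow their most abundant members: without Serpinh1 the ratios were 6.49 to 10.7 in NFs and 4.21 to 6.83 in tumor cells, and then overlapped. They are descriptions with no test.

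**Figure D5:**
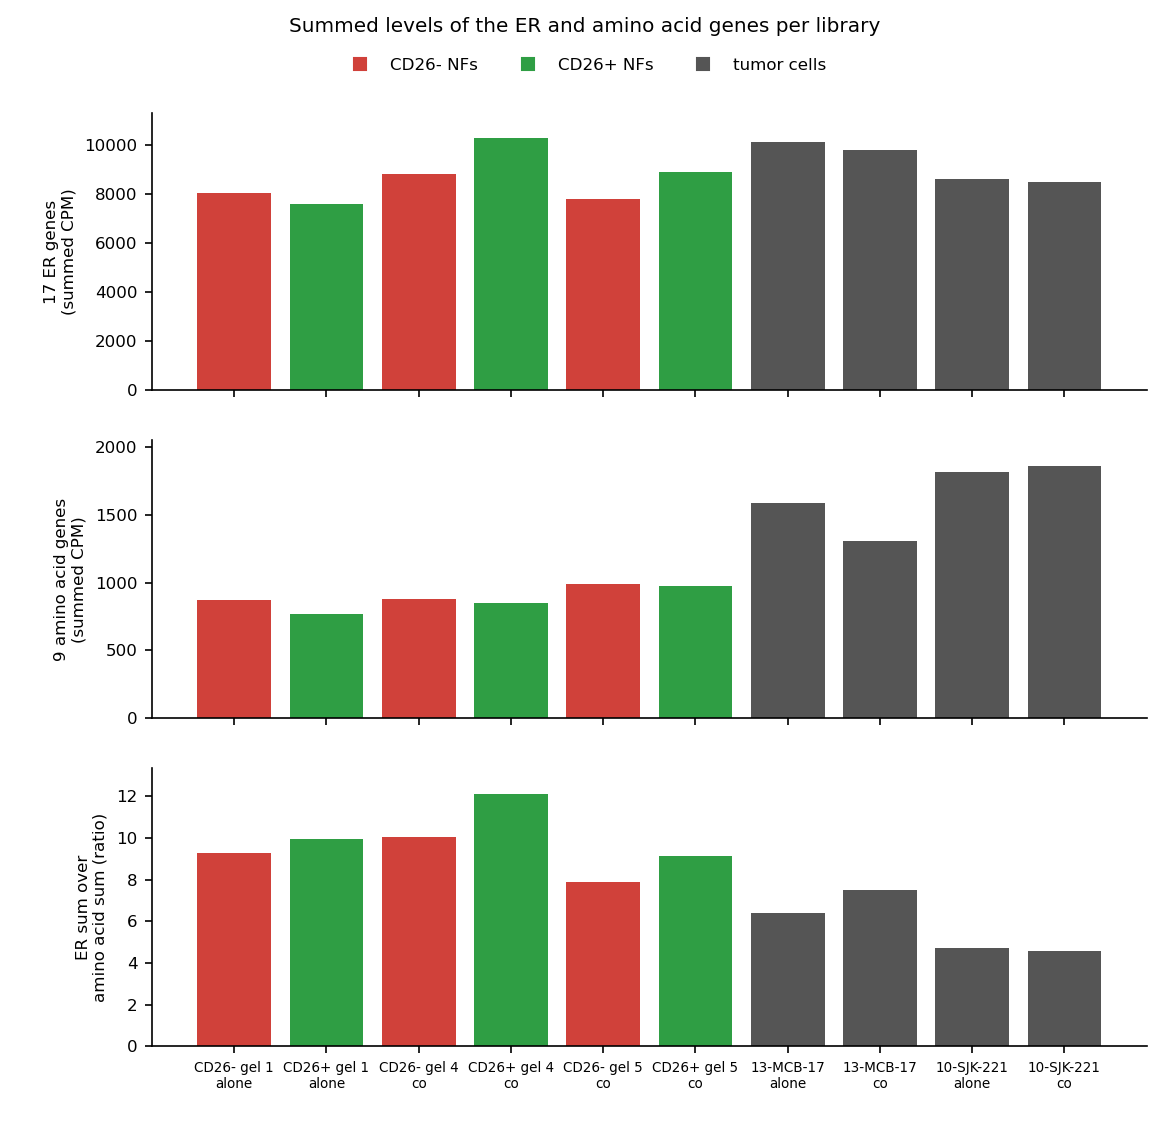
Summed CPM of the 17 ER genes and of the 9 amino acid genes, and the ratio of the sums, in each of the 10 libraries (bars from 0, red CD26- NFs, green CD26+ NFs, gray tumor cells). The ratio runs from 7.87 to 12.1 in NFs and from 4.57 to 7.49 in tumor cells.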

How the data were processed

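RNA of 10 libraries, prepared with a stranded mRNA kit per the labels, had been sequenced by the authors, whose processing notes name HISAT2 2.2.1 and GRCm38. The authors deposited raw read counts per gene for all libraries in 1 table, without normalization. Which program counted reads, whether by strand, and on which annotation release is not given in the sources used here, so counts of genes with overlapping exons are uncertain. Positions and exon lengths are from GENCODE M21 (GRCm38), which held 55226 of the 55486 gene IDs, 99.26% of them at the deposited position, and a line with no gene ID held 0 counts and was left out.

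CPM used library totals. All fits ran on the whole table in edgeR 4.0.16 (R 4.3.3; TMM, filterByExpr, glmQLFit, glmQLFTest, Benjamini-Hochberg, threshold 0.05), with DESeq2 1.42.0 as an alternative. NF comparisons used the 6 NF libraries with subset and culture as terms (4 groups for the interaction), tumor comparisons the 4 tumor libraries with line and culture, and comparisons across cell types all 10 in 6 groups. SE is of the log2 fold change, derived from the F statistic. Scripts were tested on simulated data. The numbering of gels in the labels marks a shared gel, which pairs libraries. Deviations between gels 4 and 5 correlated at 0.12 between the NF subsets, and at 0.12 and 0.07 between either subset and tumor cells. Tumor cells alone were in other gels. Their difference between the lines correlated at 0.60 with that of co-cultured tumor cells, which is no check on a shared gel. The study's own analysis used DESeq2 with an adjusted p under 0.05 and an absolute log2 fold change above 2.

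Members and gene lists were chosen with earlier results of these data known. Values per library were to be given for Hspa5, Xbp1, Atf4, Ddit3, Asns and Serpinh1, and per comparison for up to 4 members of each role and direction with the largest change past the threshold. Intervals and floors cover counting error only. Alternatives were RLE scaling, library totals, no filter beyond 1 count, a gel or line block or its absence, a shared spread, and leaving out each gel. One gene deleted in the tumor model is not reported here.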

Additional observations from a re-analysis of the deposited data

Results flagged for a closer look

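For 9 of the 35 genes, the change from growth alone to co-culture differed between NFs and tumor cells by a test of the difference itself (edgeR, adjusted p under 0.05), 8 upward and 1 downward, beside 12.0% and 8.15% of all 17048 genes tested. The log2 difference, NFs minus tumor cells, was 1.47 for Hspa5, 0.81 for Hsp90b1, 0.77 for Dnajb9, 0.71 for Herpud1, 0.93 for Atf6, 1.05 for Trib3, 0.87 for Psat1 and 0.96 for Mthfd2. For Serpinh1 it was -1.36, with a rise in tumor cells and no called change in NFs. Without gel 4 or without gel 5, 0 of the 9 and 0 of all genes passed, with 1 degree of freedom, and the differences for Hspa5 were 1.29 and 1.60 and for Atf6 0.91 and 0.93. Without gel 2, Hsp90b1, Herpud1, Trib3, Psat1 and Mthfd2 did not pass (0.60 to 0.83), and without gel 3 Dnajb9 did not (0.67). Between the NF subsets, 0 of the 35 passed for a difference in this response in edgeR without a block, with 3 at an unadjusted p under 0.05, while Atf3 passed with gel as a block, at -1.20 (adjusted p = 0.00634), and in DESeq2, at -1.22 (adjusted p = 0.0316). Groups held 1 or 2 libraries, too few to look for single libraries far from their group.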

How the results depend on the processing

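The subsets were compared over 3 gels, all other comparisons rest on 1 or 2 gels a group, and NFs alone on 1. Depth did not limit the members, all of which were tested in each comparison. Adding the study's criterion of an absolute log2 fold change above 2 left 1 member higher and 3 lower in NFs against tumor cells grown alone and 0 in every other comparison. Of the other settings, library totals without TMM gave 2 higher and 0 lower between the NF subsets, 4 lower in co-cultured NFs, and 13 lower in NFs of shared gels. Among all genes these totals raised the share of higher calls between the NF subsets from 52.2% to 81.0% and between the lines from 41.0% to 56.2%, and lowered it in shared gels from 53.3% to 43.3%. RLE scaling gave 10 higher in shared gels. DESeq2 gave 2 higher between the subsets, 1 lower in their interaction with culture, and 1 lower in co-cultured tumor cells, where Ddit3 was no longer called higher. It gave 1 higher and 3 lower between the lines, 10 higher in shared gels, and 12 higher in the interaction of cell type and culture (Ern1, Ddit3, Chac1 and Pycr1 beside the 8). Tumor line as a term gave 5 higher and 20 lower for cells grown alone. No filter beyond 1 count gave 4 lower in co-cultured tumor cells and added Atf3 to the higher ones.

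Where the shared gel paired libraries, the fit with gel as a block gave 1 member higher between the subsets (Ddit3) and added Ern1 to the lower ones. It gave 1 lower in the subset by culture interaction, and 9 higher and 10 lower in shared gels. The other comparisons had too few gels in common for such a fit. Without the pairing by line in co-cultured tumor cells, or by culture between the lines, 0 members and 0 of all genes passed. A spread shared over all 10 libraries gave 1 higher and 1 lower in co-cultured tumor cells. Leaving out 1 gel at a time gave 0 to 1 higher and 0 to 3 lower between the subsets, 12 to 18 higher and 2 lower in co-cultured NFs, 0 to 1 higher and 0 to 1 lower in co-cultured tumor cells, 1 higher and 0 lower between the lines, 1 to 7 higher and 3 to 10 lower in shared gels, 2 to 3 higher and 8 to 17 lower for cells grown alone, and 0 to 12 higher and 0 to 1 lower in the interaction of cell type and culture. For tumor cells these fits used a spread shared with the NFs, which assumes that a lone library varies like the other groups. Within tumor cells they rest on the pair of the other line or culture, so leaving out either library of a pair gave the same estimate. Leaving out gel 1 was not possible where it held the only NFs alone. Without Serpinh1, the ER over amino acid ratio of NFs alone was 7.53 on average in place of 9.59, and in the other groups it moved by less than the spread.

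The following uncalled values changed sign. Between the subsets Hspa5 was -0.010 with no filter beyond 1 count and -0.066 to 0.17 leaving out 1 gel, Atf4 -0.018 to 0.10 leaving out 1 gel, and Serpinh1 0.0061 with library totals. In their interaction with culture, leaving out 1 gel gave -0.027 to 0.22 for Xbp1 and -0.061 to 0.16 for Atf4. In co-cultured tumor cells it gave -0.83 to 0.20 for Asns. In shared gels Atf4 was -0.032 with library totals. In the interaction of cell type and culture, leaving out 1 gel gave -0.15 to 0.41 for Xbp1 and -0.039 to 2.15 for Asns. Over all 35 members, comparisons and alternatives except the added fold criterion, 171 calls were lost and 74 gained. No call of a named member changed direction.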

Other observations

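The genes here come from the lists of further pathway genes and were singled out after their values were seen, mostly among those that rose in co-cultured NFs. In that comparison 4 of the 43 other ER genes and 4 of the 28 tested amino acid stress genes fell. Ero1l, the ER oxidase that renews disulfide isomerases, was 37.7 CPM in CD26- and 37.1 CPM in CD26+ NFs alone, 1494 and 1404 CPM in gel 4, and 1915 and 1481 CPM in gel 5, a log2 fold change of 5.44 ± 0.23 (SE, adjusted p = 2.66e-07) in edgeR. Tumor cells had 1475 CPM alone and 2689 CPM co-cultured for 13-MCB-17, and 2292 and 2146 CPM for 10-SJK-221, so that NFs alone stood apart from the other 8 libraries. The epithelial marker share times the tumor level was at most 105 CPM for Ero1l, and its part in the difference was not tested. P4hb, a disulfide isomerase that is also a subunit of collagen prolyl hydroxylase, was 1499 CPM in CD26- and 1348 CPM in CD26+ NFs alone, 3585 and 3433 CPM in gel 4, and 3672 and 3941 CPM in gel 5 (1.41 ± 0.17, adjusted p = 0.000139), while the isomerase gene Pdia4 fell in the same libraries. Wfs1, an ER membrane protein, rose in NFs (1.23 ± 0.18, adjusted p = 0.000382) and fell in tumor cells (-0.51 ± 0.13, adjusted p = 0.0225).

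Slc7a11, the cystine transporter and a known ATF4 target, went opposite ways in the cell types. In NFs it was 19.2 CPM in CD26- and 15.0 CPM in CD26+ NFs alone, 135 and 144 CPM in gel 4, and 142 and 101 CPM in gel 5 (2.98 ± 0.18, adjusted p = 2.33e-06). In tumor cells it was 782 CPM alone and 54.0 CPM co-cultured for 13-MCB-17, and 196 and 46.1 CPM for 10-SJK-221 (-3.01 ± 0.36, adjusted p = 0.000908), and the difference between the responses was 6.31 ± 0.79 (SE, adjusted p = 0.00133). Nupr1, a stress-induced nuclear protein, was 56.6 CPM in CD26- and 63.5 CPM in CD26+ NFs alone, 215 and 211 CPM in gel 4, and 227 and 298 CPM in gel 5 (2.03 ± 0.18, adjusted p = 1.83e-05) and had no called change in tumor cells (-0.12 ± 0.11, adjusted p = 0.505). Cth, which makes cysteine from cystathionine, rose from 6.40 and 4.35 CPM in NFs alone to between 20.7 and 22.8 CPM in co-cultured NFs (2.08 ± 0.20, adjusted p = 3.13e-05).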
